A study of Mus musculus with 46 samples.

Results

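The 9 genes described here encode the enzymes that make cysteine from homocysteine and that build, recycle and use glutathione, and they were picked by name from 25147 genes in the count table. The set was selected on the low level of Cbs after human chorionic gonadotropin (hCG), so the values of Cbs are given as a description with no test, and the other 8 genes are tested. All 9 occur in the authors' tables of counts and of TPM, the usual transcript measure that scales for gene length and library total. They fall by role into transsulfuration (Cbs, Cth), glutathione synthesis (Gclc, Gclm, Gss), glutathione reduction (Gsr) and glutathione peroxidases (Gpx1, Gpx3, Gpx4).

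Each of the 46 libraries holds polyA RNA from 1 cultured ovarian follicle, and the follicles came from CD-1 mice, which are outbred. There were 9 follicles before hCG (0 h), and 13, 13 and 11 were frozen 1 h, 4 h and 8 h after it. Every follicle had grown in alginate for 8 days, 1 to a well, and was then freed from the gel. The medium that held hCG at 1.5 IU/ml also held EGF at 10 ng/ml, rFSH at 10 mIU/ml and 10% FBS, and all groups had rFSH during growth. No untreated follicles of matched time are described, so each comparison is between times. All 11 follicles of 8 h were in batch 1, with 10 of 1 h and 10 of 4 h. All 9 follicles of 0 h were in batch 2, with 3 of 1 h and 3 of 4 h. A difference of 8 h from 0 h is therefore a sum of differences within batches. In batch 1 the follicles at 1 h and 8 h shared plate 1 and those at 4 h were on plate 2, so plate and time cannot be told apart there. The labels do not tie follicles to animals, and every p-value is set by the variation among follicles, which may share an animal. That variation was measured on counts already adjusted between batches, a step whose own error is not in the p-values. A follicle holds several cell types, and fewer cells of a type cannot be told apart from less RNA per cell.

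As background, homocysteine from the methionine cycle is condensed with serine to cystathionine by the CBS enzyme, and cystathionine is split by the CTH enzyme to give cysteine. Cysteine is joined to glutamate by glutamate-cysteine ligase, made of a catalytic subunit (Gclc) and a modifier subunit (Gclm), and glycine is added by glutathione synthetase (Gss). Glutathione reductase (Gsr) returns oxidized glutathione to its reduced form with NADPH, and the glutathione peroxidases spend it to remove peroxides. In the follicle, glutathione is known above all for protecting the oocyte and for loosening sperm chromatin after fertilization.

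The sequences before 3 of the genes are shown because these genes had contrasting courses, with Cbs low, Gss high and Gclm briefly high after hCG. They come from the 250 bases before the start of the RefSeq transcript, read 5′ to 3′ on the strand of the gene (GRCm38.p6), without bases that lie in an exon. Those of Gss and Gclm end at that start, and that of Cbs ends 33 bases before it, where exon bases were left out. Capitals mark the core of the antioxidant response element, the site bound by NRF2, on the opposite strand.
Cbs, chr17:31637239-31637455, minus strand, 217 bases: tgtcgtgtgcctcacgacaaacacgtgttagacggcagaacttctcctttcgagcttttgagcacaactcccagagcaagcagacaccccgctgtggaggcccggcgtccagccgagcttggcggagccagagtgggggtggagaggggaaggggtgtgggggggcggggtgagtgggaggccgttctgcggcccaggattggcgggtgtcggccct
Gss, chr2:155592811-155593060, minus strand, 250 bases: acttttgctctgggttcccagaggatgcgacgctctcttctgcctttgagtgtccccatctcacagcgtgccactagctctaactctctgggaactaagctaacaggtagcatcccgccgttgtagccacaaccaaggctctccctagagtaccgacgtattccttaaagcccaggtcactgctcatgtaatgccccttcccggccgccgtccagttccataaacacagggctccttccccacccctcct
Gclm, chr3:122245307-122245556, plus strand, 250 bases: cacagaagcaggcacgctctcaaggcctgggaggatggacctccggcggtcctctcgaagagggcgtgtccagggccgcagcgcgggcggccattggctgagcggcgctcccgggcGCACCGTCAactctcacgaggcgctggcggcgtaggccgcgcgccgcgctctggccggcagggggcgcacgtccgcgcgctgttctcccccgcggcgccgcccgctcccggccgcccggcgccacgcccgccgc
RefSeq windows were at hand for 6 of the 9 genes (9 windows of 250 bases, since Gpx4 has several starts), and not for Cth, Gclc and Gsr. The antioxidant response element core (TGACNNNGC, either strand) occurred in 1 of the 9 windows, that of Gclm, with its start 134 bases before the transcript, and in 10.2% of all 32851 windows. The cAMP response element (TGACGTCA) occurred in 0 of the 9 and in 1.55% of all windows. The AP-1 site (TGANTCA) was in 0 of the 9 and in 6.75% of all, and the NR5A site (CAAGGTCA) in 0 of the 9 and in 1.33% of all. A match describes these letters only.

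Library totals ranged from 241442 to 5185044 counts, with medians of 3286107 at 0 h and 730895 at 1 h. A set of 3332 genes with counts in batch 1 had 0 counts in all 6 batch 2 libraries after hCG, and its share of a library's counts was 22.6% to 46.2% before hCG and no more than 0.0667% after. None of the 9 genes is in that set, but its weight lowers TPM at 0 h, so TPM rescaled without it are given beside those levels. CPM are counts scaled to a library total of 1e+06 after TMM scaling. Unless said otherwise, fitted values are log2 fold changes ± SE from 1 edgeR fit with terms for time and batch, and a gene is called at an adjusted p under 0.05. The median of all 8629 genes tested was -0.19 at 1 h, -0.12 at 4 h and -0.15 at 8 h against 0 h. With RLE factors in place of TMM, over the same genes, it was -0.171, -0.085 and -0.089. It was -0.12, 0.02 and -0.03 without the set of 3332 genes (8835 genes tested). With limma on log2(TPM + 1), over 11834 genes, it was -0.02, 0.15 and 0.23. Small differences from 0 h thus depend on the fit and on the genes tested.

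Before hCG the peroxidases and Cbs were the abundant members, and the synthesis genes and Cth were scarce. On the TPM scale, which allows genes to be compared, the mean level at 0 h was 527 ± 754 for Gpx3, 424 ± 145 for Gpx4, 91.8 ± 25.9 for Cbs and 88.3 ± 30.9 for Gpx1 (SD, n = 9). These were 791, 666, 146 and 137 after rescaling. The ranges of Gpx3 and Gpx4 overlapped, as did those of Cbs and Gpx1, and these pairs were apart from each other and from the rest except for the low follicles of Gpx3. Gclm (4.51 ± 1.67 TPM), Gsr (4.10 ± 3.61) and Gss (4.05 ± 1.58) came next with overlapping ranges, and Gclc (1.05 ± 0.71) and Cth (0.648 ± 1.48) were lowest (SD, n = 9). Rescaled, the means of Gclm, Gsr, Gss, Gclc and Cth were 7.10, 6.47, 6.34, 1.67 and 1.05 TPM. At 1 h Gpx3 led with 1524 ± 834 TPM, before Gpx4 (424 ± 115), Cbs (104 ± 46.7) and Gpx1 (79.8 ± 26.3), and Gclm (11.8 ± 3.57), Gclc (7.29 ± 3.37) and Gsr (6.20 ± 3.05) lay above Gss (3.02 ± 1.78), with Cth last (0.794 ± 1.18) (SD, n = 13). At 4 h Gpx4 (385 ± 131 TPM), Gpx3 (202 ± 161), Gpx1 (68.0 ± 29.1) and Gss (45.3 ± 10.6) led, and Cth (11.9 ± 4.21), Gclm (10.7 ± 2.89), Gclc (8.55 ± 4.73) and Gsr (7.16 ± 2.81) lay above Cbs (3.65 ± 2.11) (SD, n = 13). By 8 h the order was Gpx4 at 599.6 ± 75.0 TPM, Gpx1 at 67.7 ± 16.9, Gpx3 at 35.4 ± 33.9, Gss at 30.1 ± 5.55 and Gsr at 14.9 ± 5.37 (SD, n = 11). Gclm (6.94 ± 1.56 TPM), Cth (3.46 ± 0.97) and Gclc (3.00 ± 1.22) followed, and Cbs was last at 0.908 ± 0.424 (SD, n = 11). Of neighbours in the order at 8 h, the ranges of Gpx4 and Gpx1 did not overlap, and those of all the other pairs did.

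**Figure D1:**
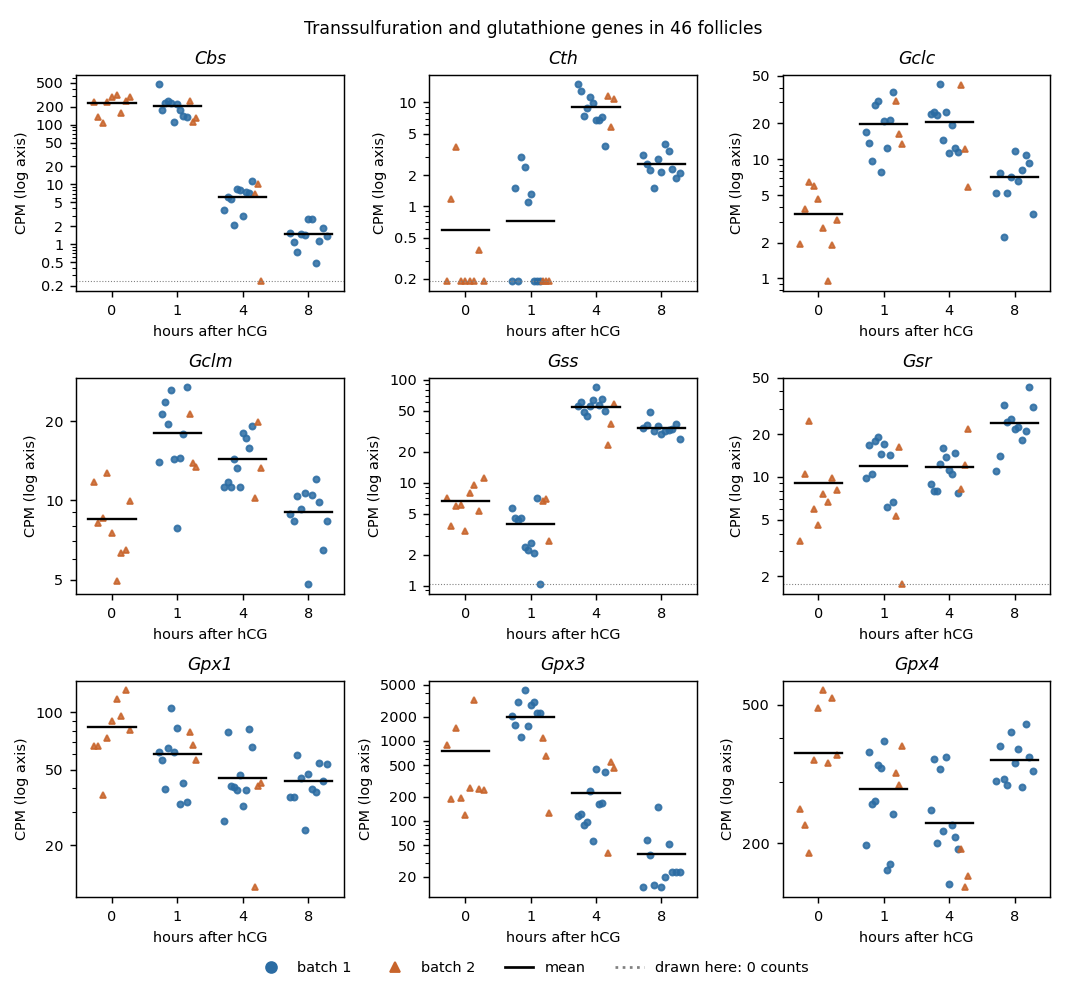
Each panel plots CPM on a log axis against hours after hCG for 1 gene, with 1 point per follicle (circles for batch 1, triangles for batch 2), and libraries with 0 counts are drawn on the dotted line. Black bars are means over all follicles of a time. Cbs sits between 108 and 473 CPM at 0 h and 1 h and at or under 11.5 CPM later, while Gss sits at or under 11.2 CPM at 0 h and 1 h and at or above 22.9 CPM later.

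Cbs, the cystathionine beta-synthase gene that opens transsulfuration (ENSMUSG00000024039.15, chromosome 17 from 31608894 to 31637238, minus strand, GRCm38), was high before and 1 h after hCG and near 0 by 8 h. At 0 h it had 108 CPM in the lowest, 244 in the median and 318 in the highest of 9 follicles. At 1 h the lowest, median and highest of 13 follicles were 111, 180 and 473 CPM. At 4 h they were 0, 7.01 and 11.5 CPM, and at 8 h, over 11 follicles, 0.483, 1.42 and 2.67 CPM. Follicles at 0 h and 1 h overlapped, and none of them overlapped with any follicle at 4 h or 8 h. In counts, 0 h follicles held 202 to 965, 4 h follicles 0 to 22 and 8 h follicles 1 to 5, so the late values rest on few reads. The single follicle with 0 counts was 4 h replicate 13 of batch 2.

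The fitted difference of Cbs was -0.36 ± 0.33 at 1 h, -5.43 ± 0.38 at 4 h and -7.50 ± 0.48 at 8 h against 0 h, given with no test. From 1 h to 4 h it was -5.07 ± 0.26, and from 4 h to 8 h a further -2.07 ± 0.37. In batch 2 alone the difference of 4 h from 0 h was -5.18 ± 0.83. The step from 1 h to 4 h was -5.12 ± 0.25 in batch 1 and -4.75 ± 0.85 in batch 2, which hold separate follicles. The counts were already adjusted between batches and Cbs chose the set, so these values are no separate check of its low level. Without the 5 libraries of 0 h whose descriptions end in "_ds", a mark that is not explained, the value at 1 h was 0.013. On the TPM scale the mean of Cbs was 104 ± 46.7 at 1 h (SD, n = 13), 3.65 ± 2.11 at 4 h (SD, n = 13) and 0.908 ± 0.424 at 8 h (SD, n = 11). In TPM, the batches overlapped at 1 h (107 ± 50.3, SD, n = 10, and 92.5 ± 37.6, SD, n = 3) and at 4 h (3.74 ± 1.89, SD, n = 10, and 3.37 ± 3.24, SD, n = 3).

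Cth, the cystathionine gamma-lyase gene of the second transsulfuration step (ENSMUSG00000028179.12, chromosome 3 from 157894248 to 157925077, minus strand, GRCm38), had its highest level at 4 h, when Cbs was already low. At 0 h there were 12 counts in all, of which 7 were in replicate 3, 4 in replicate 2 and 1 in replicate 8, and the other 6 follicles had 0. At 1 h 8 of 13 follicles had 0 counts, and the 6 counts of that time all lay in batch 1. A count of 0 at 1 h allows up to 2.62 to 10.7 CPM, depending on the library (3 counts of its total, counting error only). At 4 h every follicle had a count, with 3.85 CPM in the lowest, 8.91 in the median and 14.9 in the highest, and none overlapped with 0 h (0 to 3.75 CPM) or 1 h (0 to 3.00 CPM). At 8 h the 11 follicles had 1.49, 2.27 and 3.94 CPM, which overlapped with 0 h, 1 h and 4 h.

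Cth did not pass the filter on low counts, and its fitted values come from the edgeR fit with no filter (19925 genes). It rose by 3.80 ± 0.61 at 4 h against 0 h (edgeR adjusted p = 2.25e-06) and by 3.63 ± 0.53 at 4 h against 1 h (edgeR adjusted p = 3.2e-07). In batch 2 alone, where all 3 follicles at 1 h had 0 counts, the second call was lost (7.19 ± 2.63, edgeR adjusted p = 0.0957), and a fitted value against a group at 0 depends on the prior count. In the fit of all libraries 31.4% and 26% of genes were called in these comparisons. The level then fell by 1.93 ± 0.43 from 4 h to 8 h (edgeR adjusted p = 0.000667), where 17.6% of genes were called. At 1 h against 0 h, where 19.6% of genes were called, it was not (0.17 ± 0.73, edgeR adjusted p = 0.958). At 8 h against 0 h it was 1.87 ± 0.73 with no call (edgeR adjusted p = 0.0542, with 23.7% of genes called). It was called in 16 of 17 alternatives, among them without 0 h replicate 3 (2.97, edgeR adjusted p = 0.000101). These 17 are only the fits in which Cth passed a filter, which rests on its counts at 4 h. Most leave out 1 library, and all adjust over fewer genes than the fit with no filter. They therefore give no separate support for a rise at 8 h. The means of batch 1 and batch 2 at 4 h were 8.97 ± 3.28 CPM (SD, n = 10) and 9.34 ± 3.13 CPM (SD, n = 3).

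The order of the transsulfuration pair, read in each follicle, differed between times, which hold separate follicles. On the TPM scale Cth lay above Cbs in 0 of 9 follicles at 0 h, 0 of 13 at 1 h, 12 of 13 at 4 h and 11 of 11 at 8 h. At 4 h this was 9 of 10 in batch 1 and 3 of 3 in batch 2. The mean at 4 h was 11.9 ± 4.21 TPM for Cth and 3.65 ± 2.11 TPM for Cbs (SD, n = 13). Since Cbs chose the genes, this order is a description.

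**Figure D2:**
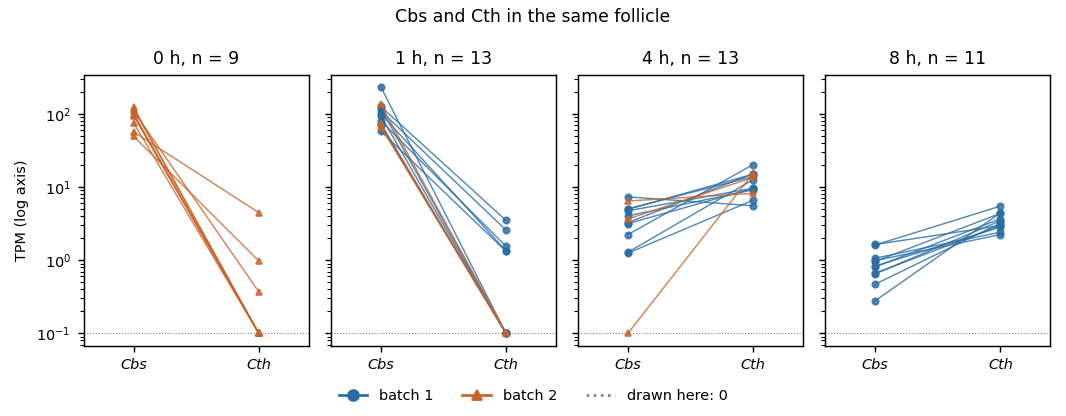
Each line joins the TPM (log axis) of Cbs and Cth in the same follicle, in 1 panel per time, with batch 1 in circles, batch 2 in triangles and values of 0 on the dotted line. Lines slope down in all follicles at 0 h and 1 h, and up in 12 of 13 at 4 h and 11 of 11 at 8 h.

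In glutathione synthesis, both subunits of glutamate-cysteine ligase rose within 1 h. Gclc, the catalytic subunit of the rate-limiting enzyme (ENSMUSG00000032350.9, chromosome 9 from 77754535 to 77794485, plus strand, GRCm38), had 0.951, 3.10 and 6.42 CPM in the lowest, median and highest follicle at 0 h. The same 3 values were 7.76, 16.8 and 37.0 CPM at 1 h and 5.81, 19.4 and 42.5 CPM at 4 h. At 8 h they had come back to 2.22, 7.11 and 11.8 CPM. Follicles at 0 h and 1 h did not overlap, and 4 h overlapped with 0 h by its lowest follicle, batch 2 replicate 13. Gclc rose by 2.53 ± 0.41 at 1 h (edgeR adjusted p = 4.81e-06) and by 2.67 ± 0.39 at 4 h (edgeR adjusted p = 1.51e-07). It was still 1.12 ± 0.46 higher at 8 h than at 0 h (edgeR adjusted p = 0.044). That last call was lost in 7 of 26 alternatives, among them without 4 h replicate 11 (0.81), 1 h replicate 11 (1.08) or 0 h replicate 8 (1.04). From 4 h to 8 h Gclc fell by 1.54 ± 0.29 (edgeR adjusted p = 2.2e-05), which was -1.32 and not called with a library set term (plate 1, plate 2 and the batch 2 set) in place of batch. The 3 follicles of batch 2 at 4 h lay far apart, at 42.1, 12.1 and 5.81 CPM.

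Gclm, the modifier subunit (ENSMUSG00000028124.15, chromosome 3 from 122245557 to 122270732, plus strand, GRCm38), moved less. Its lowest, median and highest follicles had 4.95, 8.21 and 12.7 CPM at 0 h, and 7.82, 17.8 and 26.9 CPM at 1 h. At 4 h they had 10.2, 13.3 and 19.8 CPM, and at 8 h 4.81, 9.29 and 12.1 CPM, so neighbouring times overlapped throughout. Gclm rose by 1.07 ± 0.25 at 1 h (edgeR adjusted p = 0.000704) and by 0.73 ± 0.23 at 4 h (edgeR adjusted p = 0.00728), and fell by 0.64 ± 0.18 from 4 h to 8 h (edgeR adjusted p = 0.00309). At 8 h against 0 h the difference was 0.09 ± 0.27 (edgeR adjusted p = 0.812). The call at 4 h was lost without 4 h replicate 12 (0.54, edgeR adjusted p = 0.0739), and the difference of 4 h from 1 h (-0.34 ± 0.17) was called only without that follicle among 28 alternatives (-0.40, edgeR adjusted p = 0.0456). In batch 2 alone the rise at 1 h was 1.02 ± 0.35 (edgeR adjusted p = 0.0525). The median ratio of Gclc to Gclm in TPM was 0.259 at 0 h, was 0.661 and 0.632 at the next times, 1 h and 4 h, and was 0.373 at 8 h, and Gclc lay above Gclm in 0 of 9, 1 of 13, 6 of 13 and 1 of 11 follicles.

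Gss, the synthetase that completes glutathione (ENSMUSG00000027610.17, chromosome 2 from 155563181 to 155592810, minus strand, GRCm38), was not higher at 1 h, and was higher at 4 h and 8 h. The lowest, median and highest follicles had 3.35, 5.997 and 11.2 CPM at 0 h and 0, 4.37 and 7.12 CPM at 1 h. At 4 h they had 22.9, 55.2 and 84.0 CPM, and at 8 h 26.4, 33.3 and 49.0 CPM. No follicle at 4 h or 8 h overlapped with 0 h or 1 h. Gss rose by 2.73 ± 0.25 at 4 h (edgeR adjusted p = 5.95e-13) and by 2.00 ± 0.30 at 8 h (edgeR adjusted p = 2.71e-07) against 0 h, and by 3.71 ± 0.22 from 1 h to 4 h (edgeR adjusted p = 4.45e-19). Fitted by itself, batch 1 had 4.04 ± 0.19 for that step (edgeR adjusted p = 1.12e-17) and batch 2 had 2.81 ± 0.54 (edgeR adjusted p = 0.00425). From 4 h to 8 h it fell by 0.73 ± 0.16 (edgeR adjusted p = 0.000301). With the library set term this last value turned to 0.45 (edgeR adjusted p = 0.617), and with limma on log2(TPM + 1) it was -0.53 and not called.

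At 1 h Gss fell by 0.98 ± 0.32 against 0 h (edgeR adjusted p = 0.0163). This call was lost in 10 of 28 alternatives, with a value of -0.18 ± 0.51 in batch 2 alone and of -0.36 with limma on log2(TPM + 1). It was also lost without 4 h replicate 11 (-0.67), 0 h replicate 7 (-0.81) or 0 h replicate 9 (-0.79). The 13 follicles at 1 h held 32 counts of Gss in all. The libraries are not stranded, and exons of Gss overlap with Acss2, an acetyl-CoA synthetase gene on the plus strand, and with the antisense genes Gssos1 and Gssos2, which the count table does not list. At 1 h Acss2 had the same direction as Gss, at -1.08 ± 0.49 against 0 h, and was not called (edgeR adjusted p = 0.0819). Its mean was 11.1 ± 3.02 CPM at 0 h (SD, n = 9) and 5.45 ± 4.14 CPM at 1 h (SD, n = 13). Acss2 went the other way from Gss at 4 h, with 1.69 ± 1.24 CPM (SD, n = 13) and a fall of 2.80 ± 0.50 against 0 h (edgeR adjusted p = 7.03e-06). How far reads were shared between these genes was not tested. Gclm likewise overlaps with Gm17494 and Gm6061, which the table does not list.

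Gsr, the reductase that restores glutathione (ENSMUSG00000031584.16, chromosome 8 from 33652523 to 33698163, plus strand, GRCm38), was highest at 8 h. It had 3.53, 7.59 and 24.6 CPM in the lowest, median and highest follicle at 0 h, with replicate 3 far above the other 8, which lay at or under 10.6 CPM. The same values were 0, 14.2 and 19.1 CPM at 1 h, 7.70, 11.2 and 21.6 CPM at 4 h, and 11.0, 22.3 and 42.7 CPM at 8 h, so all times overlapped. Gsr rose by 1.29 ± 0.42 at 8 h against 0 h (edgeR adjusted p = 0.0112), by 0.96 ± 0.26 against 4 h (edgeR adjusted p = 0.00229) and by 0.95 ± 0.28 against 1 h (edgeR adjusted p = 0.00387). The call against 0 h was lost in 5 of 26 alternatives, among them with the library set term (0.49, edgeR adjusted p = 0.584), with the replicate block (0.034, edgeR adjusted p = 0.99) and without 4 h replicate 13 (0.94, edgeR adjusted p = 0.0821). The value against 4 h turned to -0.12 with the library set term (edgeR adjusted p = 0.935), and the call against 1 h held in all 27 alternatives. It was not called at 1 h (0.34 ± 0.40, edgeR adjusted p = 0.533) or at 4 h (0.32 ± 0.36, edgeR adjusted p = 0.463) against 0 h. Without 0 h replicate 3 the value at 4 h was 0.76 and was called (edgeR adjusted p = 0.0482).

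Among the peroxidases, the cytosolic enzyme gene Gpx1 (ENSMUSG00000063856.7, chromosome 9 from 108338903 to 108340343, plus strand, GRCm38) fell by modest amounts. Its lowest, median and highest follicles had 36.9, 80.1 and 130 CPM at 0 h, 33.0, 61.6 and 105 CPM at 1 h, 12.1, 40.9 and 81.3 CPM at 4 h, and 24.2, 43.6 and 59.3 CPM at 8 h. All times overlapped. Gpx1 fell by 1.07 ± 0.30 at 4 h (edgeR adjusted p = 0.00207) and by 1.15 ± 0.33 at 8 h (edgeR adjusted p = 0.00408) against 0 h, and was not called at 1 h (-0.62 ± 0.29, edgeR adjusted p = 0.0849). With limma on log2(TPM + 1) the values at 4 h and 8 h were -0.51 and -0.44, and without the "_ds" libraries -0.49 and -0.56, none of them called. The difference of 8 h from 1 h (-0.53 ± 0.22, edgeR adjusted p = 0.0409) was lost in 23 of 28 alternatives.

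Gpx4, which reduces lipid peroxides in membranes (ENSMUSG00000075706.10, chromosome 10 from 80047166 to 80056439, plus strand, GRCm38), was abundant at all 4 times. It had 187, 346 and 550 CPM in the lowest, median and highest follicle at 0 h, 167, 293 and 394 at 1 h, 149, 208 and 354 at 4 h, and 290.5, 340 and 440 at 8 h. These ranges overlapped at all times. At 4 h Gpx4 fell by 0.76 ± 0.24 against 0 h (edgeR adjusted p = 0.0068), a call lost in 7 of 28 alternatives. Among these were limma on log2(TPM + 1) (-0.11), the fit without the "_ds" libraries (-0.12), and those without 4 h replicate 11 (-0.58) or 0 h replicate 6 (-0.55). In TPM, Gpx4 averaged 424 ± 145 at 0 h (SD, n = 9) and 385 ± 131 at 4 h (SD, n = 13). It rose by 0.58 ± 0.17 from 4 h to 8 h (edgeR adjusted p = 0.00548), a call kept in all 28 alternatives, and at 8 h against 0 h it was not called (-0.19 ± 0.27, edgeR adjusted p = 0.594).

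Gpx3, the secreted peroxidase (ENSMUSG00000018339.11, chromosome 11 from 54902453 to 54910377, plus strand, GRCm38), differed widely between follicles of the same time. At 0 h it had 118 CPM in the lowest, 249.2 in the median and 3200 in the highest of 9 follicles, and replicates 1 (878 CPM), 3 (1433 CPM) and 7 (3200 CPM) stood above the other 6, which lay at or under 260 CPM. At 1 h the lowest, median and highest follicles had 126, 2069 and 4281 CPM. In batch 1 all 10 follicles at 1 h had at least 1113 CPM, and those of batch 2 had 1094, 651 and 126 CPM. At 4 h the values over 13 follicles were 40.2, 162 and 549 CPM. At 8 h they were 14.96, 23.1 and 149 CPM over 11 follicles, overlapping with 0 h by the highest follicle alone.

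Gpx3 fell by 4.41 ± 0.87 at 8 h against 0 h (edgeR adjusted p = 4.43e-05) and by 5.67 ± 0.61 at 8 h against 1 h (edgeR adjusted p = 5.42e-11). It also fell by 2.57 ± 0.56 from 4 h to 8 h (edgeR adjusted p = 0.000192), and the calls of both these steps to 8 h held in all 28 alternatives. At 1 h against 0 h it was not called (1.26 ± 0.73, edgeR adjusted p = 0.174). That value was 2.06 and called without 0 h replicate 7 (edgeR adjusted p = 0.0182), and -0.23 ± 1.02 in batch 2 alone. The fall at 4 h against 0 h (-1.84 ± 0.67, edgeR adjusted p = 0.0175) was lost in 10 of 28 alternatives, among them without 0 h replicate 7 (-0.99), 4 h replicate 11 (-1.50), 1 h replicate 11 (-1.63) or 1 h replicate 12 (-1.58), and in batch 2 alone (-1.02 ± 1.08).

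From 1 h to 4 h Gpx3 fell by 3.10 ± 0.53 (edgeR adjusted p = 2.41e-06), but the batches differed. Fitted on its own, batch 1 gave a step of -3.62 ± 0.42 (edgeR adjusted p = 7.55e-09) and batch 2 one of -0.79 ± 1.24 (edgeR adjusted p = 0.758). The test of the difference itself gave 2.87 ± 0.86 (batch 2 minus batch 1, edgeR adjusted p = 0.0493). Gpx3 was the single member called among 7 tested, where 5.09% of 5820 genes were called. The call was lost in 5 of 9 alternatives, namely with RLE factors (2.85) and without 1 h replicate 12 (2.93), 1 h replicate 13 (2.39), 4 h replicate 12 (2.36) or 4 h replicate 13 (2.60). For the other 6 members tested the difference was not called, with values from -1.22 for Gss to 1.17 for Gsr.

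Against 0 h, 7 of the 8 genes besides Cbs passed the filter, and Cth is left out of the next counts. At 1 h, 3 of the 7 were called, with Gclc and Gclm higher and Gss lower, where 34.6% of all 8629 genes were called (12.4% rose and 22.2% fell). At 4 h, 6 of the 7 were called, with Gclc, Gclm and Gss higher and Gpx1, Gpx3 and Gpx4 lower, where 54.2% of all genes were called (21.9% rose and 32.2% fell). At 8 h, 5 of the 7 were called, with Gclc, Gss and Gsr higher and Gpx1 and Gpx3 lower, where 45.1% of all genes were called (17.5% rose and 27.6% fell). All 3 synthesis genes were higher at 4 h, all 3 peroxidases lower, and their median differences were 2.67 and -1.07. Without the "_ds" libraries Gpx1 (-0.49), Gpx3 (-1.60), Gpx4 (-0.12) and Gclm (0.54) were not called at 4 h. With limma on log2(TPM + 1) Gpx1 (-0.51), Gpx3 (-1.37) and Gpx4 (-0.11) were not called. The share of calls that were rises differed between fits. At 4 h it was 40.5% in the main fit and 42.4% with RLE factors, both over 8629 genes. It was 49.0% without the set of 3332 genes (8835 genes tested) and 57.1% with limma on log2(TPM + 1) (11834 genes tested). At 8 h these shares were 38.8%, 43.1%, 47.6% and 63.3%, and at 1 h 35.9%, 37.1%, 42.0% and 48.3%. In thinned counts (3159 genes tested) the shares were 48.2%, 49.1% and 49.9% at 4 h, 8 h and 1 h. Apart from RLE factors, these fits differ in more than the scaling, whose part was not tested.

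**Figure D3:**
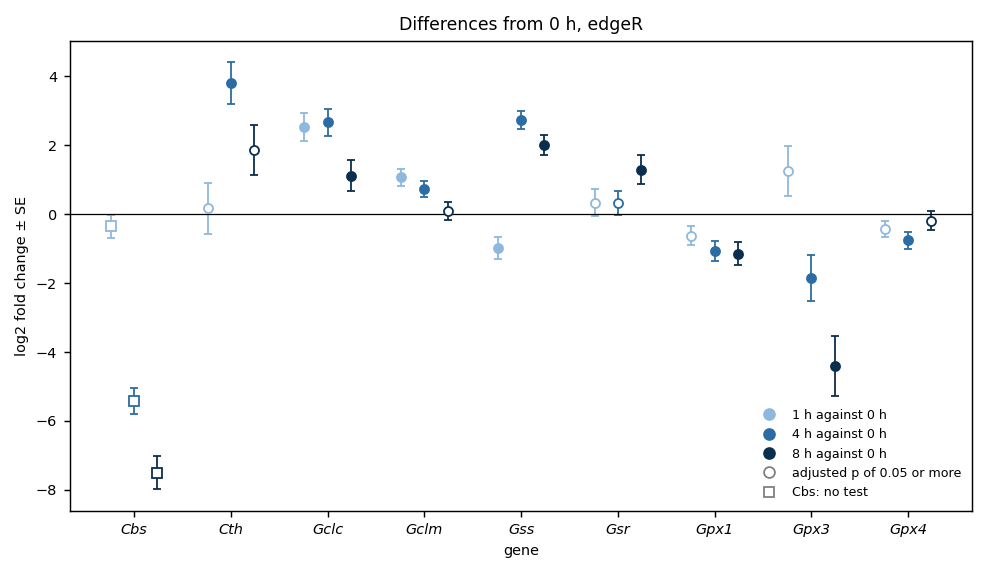
Points are log2 fold changes against 0 h with their SE for each gene at 1 h, 4 h and 8 h, filled where the edgeR adjusted p was under 0.05 and open where it was not, with Cbs as open squares and no test and Cth from the fit with no filter. Gclc and Gss lie above 2.5 at 4 h, where Gpx1, Gpx3 and Gpx4 lie below 0, and Cbs reaches -7.50 at 8 h.

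Between later times, the same 7 genes were compared. From 1 h to 4 h, 2 of the 7 were called (Gss higher, Gpx3 lower), where 54.8% of all genes were called. This count went to 4 without 4 h replicate 10, where Cth passed the filter and Gpx1 was called (-0.48, edgeR adjusted p = 0.0443), and to 4 without 4 h replicate 12, where Cth and Gclm were added. From 4 h to 8 h, 6 of the 7 were called, with Gclc, Gclm, Gss and Gpx3 lower and Gsr and Gpx4 higher, where 41.3% of all genes were called. From 1 h to 8 h, which in batch 1 shared a plate, 6 of the 7 were called, with Gss and Gsr higher and Gclc, Gclm, Gpx1 and Gpx3 lower, where 49.1% of all genes were called. The comparisons share samples, so their values are not independent of each other.

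Genes of the surrounding pathways came from lists chosen with earlier results of these data in view, and their counts, medians and the members with large called changes are given as a description. Of all genes tested, 34.6% were called at 1 h, 54.2% at 4 h and 45.1% at 8 h against 0 h, and a list whose share lies near these gives no result about the list. Of 6 methionine cycle genes tested, 2 rose, 2 fell and 2 were not called at 4 h against 0 h, with a median of -0.11. Mat2a, the synthetase of S-adenosylmethionine, rose by 1.89 ± 0.20, and Ahcy, which releases homocysteine, by 1.71 ± 0.53. The regulatory subunit gene Mat2b fell by 2.68 ± 0.39 and Ahcyl1, a relative of Ahcy, by 1.61 ± 0.34. For cystine uptake, cysteine and sulfide use, 6 of 8 genes tested rose and 2 fell at 4 h, with a median of 0.86. Slc7a11 and Slc3a2, the light and heavy chains of the cystine importer, rose by 1.83 ± 0.27 and 2.15 ± 0.25 at 4 h and by 2.76 ± 0.31 and 2.62 ± 0.30 at 8 h. Tst, a mitochondrial sulfurtransferase, fell by 2.81 ± 0.37 at 4 h.

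Glutathione breakdown and export had 3 genes higher and 2 lower of 5 tested at 4 h, with a median of 0.91. Ggct, which acts on gamma-glutamyl peptides, rose by 2.55 ± 0.50 and the exporter Abcc1 by 1.03 ± 0.23, and Cndp2, a dipeptidase, fell by 1.85 ± 0.22. Of 7 other genes of peroxide and superoxide removal, 3 rose and 4 fell at 4 h, with a median of -1.50. The mitochondrial superoxide dismutase Sod2 rose (1.18 ± 0.19), and catalase Cat (-2.61 ± 0.33) and the extracellular dismutase Sod3 (-2.10 ± 0.50) fell. Of the peroxidases of the endoplasmic reticulum, Gpx8 had fallen by 1.60 ± 0.34 at 1 h, and Gpx7 fell by 2.53 ± 0.42 by 8 h. Of 16 glutathione transferases tested, 3 rose, 8 fell and 5 were not called at 4 h (median -0.92), and at 8 h 2 rose, 9 fell and 5 were not called (median -1.63). The microsomal transferase Mgst1 rose by 2.33 ± 0.33 at 4 h, and Mgst3 fell by 2.30 ± 0.44.

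Of 10 genes for NRF2, its regulators and its targets, 6 rose, 1 fell and 3 were not called at 1 h, with a median of 0.62. Srxn1, which reactivates peroxiredoxins, rose by 6.04 ± 0.56 at 1 h, 4.49 ± 0.60 at 4 h and 2.82 ± 0.67 at 8 h. Its mean was 0.802 ± 0.881 CPM at 0 h (SD, n = 9) and 60.0 ± 45.3 CPM at 1 h (SD, n = 13), so the size of these rises rests on few reads at 0 h. Bach1, a repressor of such targets, rose by 2.20 ± 0.52 at 1 h, and Keap1, which restrains NRF2, fell by 1.72 ± 0.29. At 4 h, 6 of these 10 rose and 2 fell (median 0.60), and at 8 h 5 rose and 1 fell (median 0.63). For NADPH supply, 2 of 8 genes rose, 4 fell and 2 were not called at 4 h (median -0.73), with Mthfd2 of the mitochondrial folate cycle at 2.01 ± 0.27 and the isocitrate dehydrogenase Idh1 at -2.42 ± 0.25. At 8 h, 1 of the 8 rose (Me1, 2.57 ± 0.32), 2 fell and 5 were not called (median 0.21). Idh1 was not low at that time, with a mean of 860 CPM at 0 h, 175 CPM at 4 h and 1220 CPM at 8 h. None of 7 genes of selenoprotein synthesis rose and 3 fell at 4 h (median -0.71). Of 9 other selenoproteins 1 rose and 5 fell at 4 h (median -0.59), and the selenium carrier selenoprotein P (Sepp1) fell by 2.38 ± 0.65 at 4 h and 4.85 ± 0.78 at 8 h. In the glutaredoxin and glyoxalase list, 3 of 7 rose and 2 fell at 4 h (median 0.31), and Glo1, the glyoxalase that uses glutathione, fell by 1.67 ± 0.32. The verbs rose and fell in these pathway accounts stand for an edgeR call (adjusted p under 0.05).

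**Figure D4:**
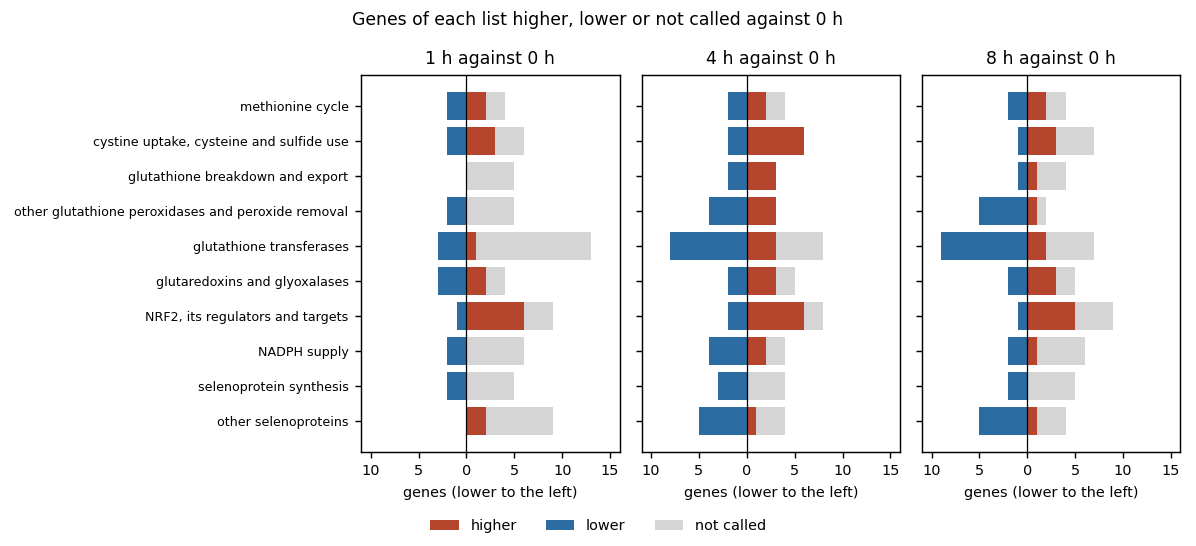
Bars count the genes of each pathway list that were higher (right, red), lower (left, blue) or not called (grey) at 1 h, 4 h and 8 h against 0 h by edgeR. At 4 h transferases are split into 3 higher and 8 lower, and the list of cystine uptake, cysteine and sulfide use into 6 higher and 2 lower.

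Markers of granulosa cells, the main cells of a follicle, were lower at the late times as well. Of 9 granulosa markers tested, 6 fell and 3 were not called at 4 h against 0 h, and 9 of 9 fell at 8 h, where 32.2% and 27.6% of all genes fell, with Fshr, the receptor for follicle-stimulating hormone, at -4.55 ± 0.46 and -6.13 ± 0.55, and Hsd17b1, an estrogen synthesis enzyme, at -4.64 ± 0.60 and -6.04 ± 0.68. The summed level of the 10 granulosa markers ranged from 18815 to 56676 CPM at 0 h, 17324 to 58626 at 1 h, 13381 to 52394 at 4 h and 9013 to 18608 at 8 h, and none of the 10 was at 0 in all follicles of a time. Most of that sum came from Inha, the inhibin alpha subunit, with 27451 ± 10252 CPM at 0 h (SD, n = 9) and 19909 ± 7003 at 4 h (SD, n = 13). Inha was among the markers not called at 4 h (-0.51 ± 0.25, edgeR adjusted p = 0.0827). Of 10 theca and stroma markers tested, 4 fell at 4 h and 5 at 8 h. Their 12-gene sum ranged from 341 to 2302 CPM at 0 h, 237 to 3311 at 1 h, 70.2 to 2265 at 4 h and 58.0 to 2843 at 8 h. At 0 h the follicle with the most Gpx3, replicate 7, also had the largest theca and stroma sum, at 2302 CPM, while replicates 1 and 3 had 1084 and 660 CPM. Of 3 smooth muscle markers tested by edgeR, 2 rose at 1 h, 3 rose at 4 h and 0 were called at 8 h, where 12.4%, 21.9% and 17.5% of all genes rose. Acta2, smooth muscle actin, rose by 2.85 ± 0.48 at 1 h (edgeR adjusted p = 7.57e-06). The 6-gene smooth muscle sum ranged from 27.0 to 475 CPM at 0 h and from 482 to 2414 CPM at 1 h, with no overlap, and from 122 to 1548 CPM at 4 h and 59.1 to 411 CPM at 8 h. Most of this sum came from Acta2, with 163 ± 144 CPM at 0 h (SD, n = 9) and 1266 ± 582 CPM at 1 h (SD, n = 13), so it largely repeats that gene. Cdh5, the 1 of 5 endothelial markers that was tested, rose by 1.98 ± 0.67 at 1 h (edgeR adjusted p = 0.0196). The 10 oocyte markers summed to 2.80 to 150 CPM over all times, and 2 of them passed the filter, with 0 called against 0 h by edgeR. The part of these markers in the values of the members was not tested.

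The genes whose levels followed that of Cbs most closely were Arhgef28, Ech1, Pak3, Hsd11b2 and Adck5. Their Pearson correlations with Cbs over the 46 libraries, in log2 CPM, were 0.945, 0.940, 0.940, 0.939 and 0.939, the 5 highest of 6814 genes compared, and all points share the times and libraries. In the 31 libraries of batch 1 they were 0.969, 0.951, 0.962, 0.959 and 0.953. Those 31 are part of the 46 that picked the genes, so these values are no separate check. Arhgef28 went from 212 ± 33.1 CPM at 0 h (SD, n = 9) to 9.80 ± 3.68 CPM at 8 h (SD, n = 11). Hsd11b2, which inactivates glucocorticoids, went from 101 ± 54.4 CPM to 0.373 ± 0.647 CPM over the same times, and Ech1, an isomerase of fatty acid oxidation, from 183 ± 45.2 to 27.4 ± 5.90 CPM.

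By the authors' deposited table, Cbs was 38.7-fold lower at 4 h and 161-fold lower at 8 h than at 0 h. The authors' deposited table gave Cth as 16.4-fold higher at 4 h and 4.41-fold higher at 8 h. For Gss the authors' deposited table gave 8.09-fold higher at 4 h and 5.14-fold higher at 8 h, and for Gclc 5.54-fold higher at 1 h and 6.09-fold higher at 4 h. Gpx3 was 2.49-fold higher at 1 h and 19.6-fold lower at 8 h in the authors' deposited table. For all 8 genes besides Cbs at 1 h, 4 h and 8 h, the direction in the authors' deposited table was that of the fitted values given above.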

How the data were processed

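Single-follicle Smart-Seq2 cDNA was made into paired-end, unstranded Nextera XT libraries, per the labels' protocols. HISAT2, Partek and DESeq2 and the build GRCm38 are named in the submitters' processing notes, and versions and settings are not given in the sources used here. The authors deposited whole-number gene counts already adjusted between batches (ComBat-seq by the table's own name, settings not stated), and TPM that the authors made from those counts. Their own comparisons with 0 h are deposited as a p-value and a signed fold score, in which a negative number is the inverse ratio, per the file headers made with DESeq2 in Partek. Another 10 columns of values matched no sample and were not used.

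The counts were analysed in R 4.3.3 with edgeR 4.0.16 (filterByExpr, TMM, terms for time and batch, glmQLFit and glmQLFTest, Benjamini-Hochberg over all 8629 genes tested, adjusted p under 0.05, biological coefficient of variation 34.0%). The interaction of time and batch was fitted on 1 h and 4 h alone. Each SE was taken as the size of the log2 fold change divided by the square root of its F statistic. Log2 CPM used a prior count of 2. Alternatives were RLE factors, no filter, no batch term, a library set term, a replicate block, 1 batch alone, thinned counts, DESeq2 1.42.0, limma 3.58.1 on log2(TPM + 1) and log2(TPM + 0.1), the data without the 5 "_ds" libraries or without the set of 3332 genes, and leaving out single libraries. Leaving out each 0 h library and 4 h replicate 10, and taking Cth from the fit with no filter, were chosen after seeing the data. The script was tested on simulated counts.

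The members and lists were chosen with earlier results of these data known. Of each pathway list, up to 2 called genes with the largest rise and 2 with the largest fall at each time against 0 h could be named, if their log2 CPM averaged 3 or more and they lay outside the set of 3332 genes. The genes most like Cbs were the 5 of highest correlation under the same limits. Newer selenoprotein names were matched to the table's older ones, and Selenof and Selenoh were not matched. Library totals limit the precision, and intervals for counts of 0 cover counting error only. Motifs were searched on both strands of RefSeq windows.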

Additional observations from a re-analysis of the deposited data

Results flagged for a closer look

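Among the 10 follicles of batch 1 at 1 h, replicate 10 had 0 CPM of Gss against 2.06 to 7.12 CPM in the other 9. On the log2 CPM scale with a prior count of 2, the gap was 0.511 of the whole range, above the critical value of 0.466. A count of 0 in that library allows up to 10.1 CPM, above all the others, so that a lower level was not detectable at this depth. It was 1 of 27 groups tested for the members, and chance gives about 1 in 20.

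The step of Gpx3 from 1 h to 4 h differed between batches by 2.87 on the log2 scale (batch 2 minus batch 1), with an edgeR adjusted p of 0.0493 for the difference itself.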

How the results depend on the processing

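Of the fold changes called for members other than Cbs, together with Gpx3 at 1 h against 0 h, 779 kept direction and side of the threshold over the alternatives, 91 lost the call, 2 gained it and 4 reversed. The 16 differences between times that were not called (Gpx3 at 1 h included), over 424 refits, gained a call in 26 (16 for Cth at 8 h against 0 h) and had the other sign in 53, of which 20 were Gsr at 4 h against 1 h. The reversed values of the first set were Gpx3 at 1 h against 0 h with the library set term (-0.26) and in batch 2 alone (-0.23), and Gss (0.45) and Gsr (-0.12) at 8 h against 4 h with the library set term. For Cbs, 162 values stayed, and the value at 1 h against 0 h turned to 0.013 without the "_ds" libraries and to 0.17 with the replicate block. With limma on log2(TPM + 1) Cbs was -4.67 at 4 h and -5.87 at 8 h against 0 h, -1.20 at 8 h against 4 h and -5.77 at 8 h against 1 h. The cause was not tested.

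The number of members called at 1 h against 0 h was 1 with the replicate block, 1 in batch 2 alone and 0 in thinned counts by edgeR, in place of 3. At 4 h against 0 h it was 2 with the block and 3 without the "_ds" libraries, in place of 6. At 8 h against 0 h it was 2 with the library set term, 1 with the block, 2 without the "_ds" libraries and 2 in thinned counts, in place of 5. In batch 2 alone 1 was called at 4 h against 1 h. At 8 h against 4 h 2 were called with the library set term and 3 in thinned counts, and at 8 h against 1 h 2 in thinned counts, in place of 6. Thinning keeps fewer genes tested (3159), and Gclc, Gclm and Gsr were not among them. Of those 3159 genes, edgeR called 881 at 1 h, 1649 at 4 h and 1399 at 8 h against 0 h. The lower counts of members in thinned counts are thus in part members left untested. With RLE factors 0 members differed between batches by edgeR in the step from 1 h to 4 h. For the block, the library set term, batch 2 alone and the fit without the "_ds" libraries, the share of all genes called is not given here. A lower count of members in those fits is thus no result about the members.

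Leaving out 1 library gave 2 to 3 members at 1 h, 4 to 8 at 4 h and 4 to 6 at 8 h against 0 h, 2 to 4 at 4 h and 5 to 7 at 8 h against 1 h, 6 to 7 at 8 h against 4 h, and 0 to 1 for the difference between batches. The highest count at 4 h, 8, was without 0 h replicate 3, where Cth passed the filter and Gsr was called. Shares of all genes called in these refits are not given here, so the counts are no result about the members. Cbs ranged over these from -0.52 to -0.12, -5.71 to -5.21 and -7.70 to -7.22 at 1 h, 4 h and 8 h against 0 h, from -5.20 to -4.98 and -7.19 to -7.06 at 4 h and 8 h against 1 h, and from -2.13 to -1.99 at 8 h against 4 h. Mean TPM at 0 h rescaled without the set of 3332 genes was 146 for Cbs, 7.10 for Gclm, 6.34 for Gss, 137 for Gpx1 and 666 for Gpx4.

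Replicate numbers are shared labels only: over 62 same-numbered pairs the median correlation of deviations was -0.0045, 52 were under 0.1, and 7 of 46 libraries correlated best with their own number, so the block does not stand for a pairing. Depth limits Cth, Gss and late Cbs, which rest on few counts in many libraries.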
